A study of Gallus gallus with 60 samples.

Results

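Ligand-gated receptor channels are the membrane pores that open when a neurotransmitter binds, and their subunit genes were examined here in the cerebrum of laying hens. The members were those rows of a deposited array table whose first probe set carried exactly 1 gene symbol, where this symbol named a subunit of the GABA-A (GABR), glycine (GLRA and GLRB), AMPA (GRIA), delta (GRID), kainate (GRIK), NMDA (GRIN), nicotinic acetylcholine (CHRN), 5-HT3 (HTR3) or P2X (P2RX) receptors. Of 20399 rows, 33 met this rule, each with a different symbol. They were 9 GABA-A, 1 glycine, 4 AMPA, 2 kainate, 4 NMDA, 10 nicotinic, 1 5-HT3 and 2 P2X subunits. A further 29 subunit genes of these families in the RefSeq gene table of the GRCg7b assembly had no such row and were not analysed here.

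The arrays came from 60 hens of 2 commercial layer lines, 30 Lohmann Selected Leghorn (LSL), a white egg layer, and 30 Lohmann Brown (LB), a brown egg layer, all kept in 1 small group housing system and 65 to 68 weeks old. The LSL hens comprised 14 from compartments of 54 hens and 16 from compartments of 36 hens, and the LB hens comprised 16 from compartments of 54 and 14 from compartments of 36. The labels name the posterior right site of the cerebrum, sampled without meninges, whereas the methods name the posterior left and right sites, so the side of each hen is not settled. According to the methods, behaviour at handling, plumage and skin lesions were used to choose between stressed and unstressed hens, with a few hens from each compartment. The labels do not say which hens were taken as stressed, so whether this mix differed between the lines is not settled. Hens of 1 compartment shared their surroundings, so p-values may be too small.

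GABA-A and glycine receptors pass chloride and mostly quieten the adult neuron, while AMPA, kainate and NMDA receptors pass cations when glutamate binds and carry most fast excitation of the forebrain. Nicotinic, 5-HT3 and P2X receptors are cation channels opened by acetylcholine, serotonin and ATP. Most of these receptors are built from several subunits, and the choice of subunit sets where a receptor sits, how fast it closes and how strongly it binds its ligand.

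Values are log2 RMA values, a background-corrected, quantile-normalised summary of the probes of each row, so that a difference of 1 is a doubling. Probes differ in brightness, and levels were therefore compared between hens for the same row and never between genes. Whether the probes of a row bind the RNA of both lines equally well was not tested. Of the 33 rows, 31 had a mean at or above the limit of 5.08, the 20th percentile of row means, and were tested among 16317 rows with limma. CHRNA3, a subunit of ganglionic and habenular nicotinic receptors, averaged 4.43 ± 0.29 in LSL and 4.24 ± 0.26 in LB hens (SD, n = 30 each), with all 60 arrays below the limit. GABRA6, known from mammals as a cerebellar granule cell subunit, averaged 4.71 ± 0.28 in LSL and 4.67 ± 0.24 in LB hens (SD, n = 30 each), with 59 arrays below the limit. Of the genes that define the labelled tissue, all 5 neuronal markers with a row (SNAP25, NEFL, STMN2, ELAVL4 and MAP2) were above the limit. All 4 rows listed as glutamatergic (SLC17A6, TBR1, NEUROD6 and BCL11B) were above it too. So were 4 of 5 cerebellar, both choroid plexus, 1 of 2 skeletal muscle and the single habenular marker row, so that passing the limit does not tell the region apart.

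The arrays fell into a set of 42 (20 LSL and 22 LB hens) and a set of 18 (10 LSL and 8 LB hens) along the first principal component of the residuals, which held 24.5% of the residual variance. Nothing in the labels names what the sets are, so each result is given within them where they matter. The sets were drawn from the residuals of the tested rows themselves, so p-values of models that hold them may be too small. As whole pieces of tissue were measured, fewer cells of a type and less RNA per cell cannot be told apart.

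The first comparison asked which receptor subunits differed between the layer lines. In LSL hens the GABA-A subunits GABRA5, GABRA3 and GABRD, the NMDA subunit GRIN2A, the kainate subunit GRIK2 and the nicotinic subunit CHRNA1 were higher than in LB hens, by 1.08- to 1.33-fold. The GABA-A subunit GABRG1 was 1.28-fold lower and the 5-HT3 subunit HTR3A 1.08-fold lower in LSL hens. Thus 8 of the 31 rows tested passed an adjusted p of 0.05, which is 25.8%, against 22.8% of all 16317 rows tested. By direction, 6 rows (19.4%) were higher in LSL, against 10.8% of all rows, and 2 rows (6.45%) were lower in LSL, against 11.9% of all rows. The median change of the 31 rows was 0.01 on the log2 scale, beside 0.00 for all rows tested, and the median size of change was 0.07, beside 0.06. The counts varied with the hens and the block. Within the 42 arrays 7 rows were higher in LSL (10.9% of all rows) and 2 lower (11.5%), and with hen pairs as a block and the array sets in the model 9 rows passed (25.8% of all rows). Fewer rows passed in the other subsets and with the pairs alone as a block. The rows higher in LSL numbered 2 in groups of 54 (4.75% of all rows), 4 in groups of 36 (5.36%), 0 in the set of 18 arrays (3.33%) and 5 with hen pairs as a block (7.95%). The rows lower in LSL numbered 2 in groups of 54 (6.43% of all rows), 1 in groups of 36 (5.41%), 1 in the set of 18 arrays (3.93%) and 1 with hen pairs as a block (9.06%).

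**Figure D1:**
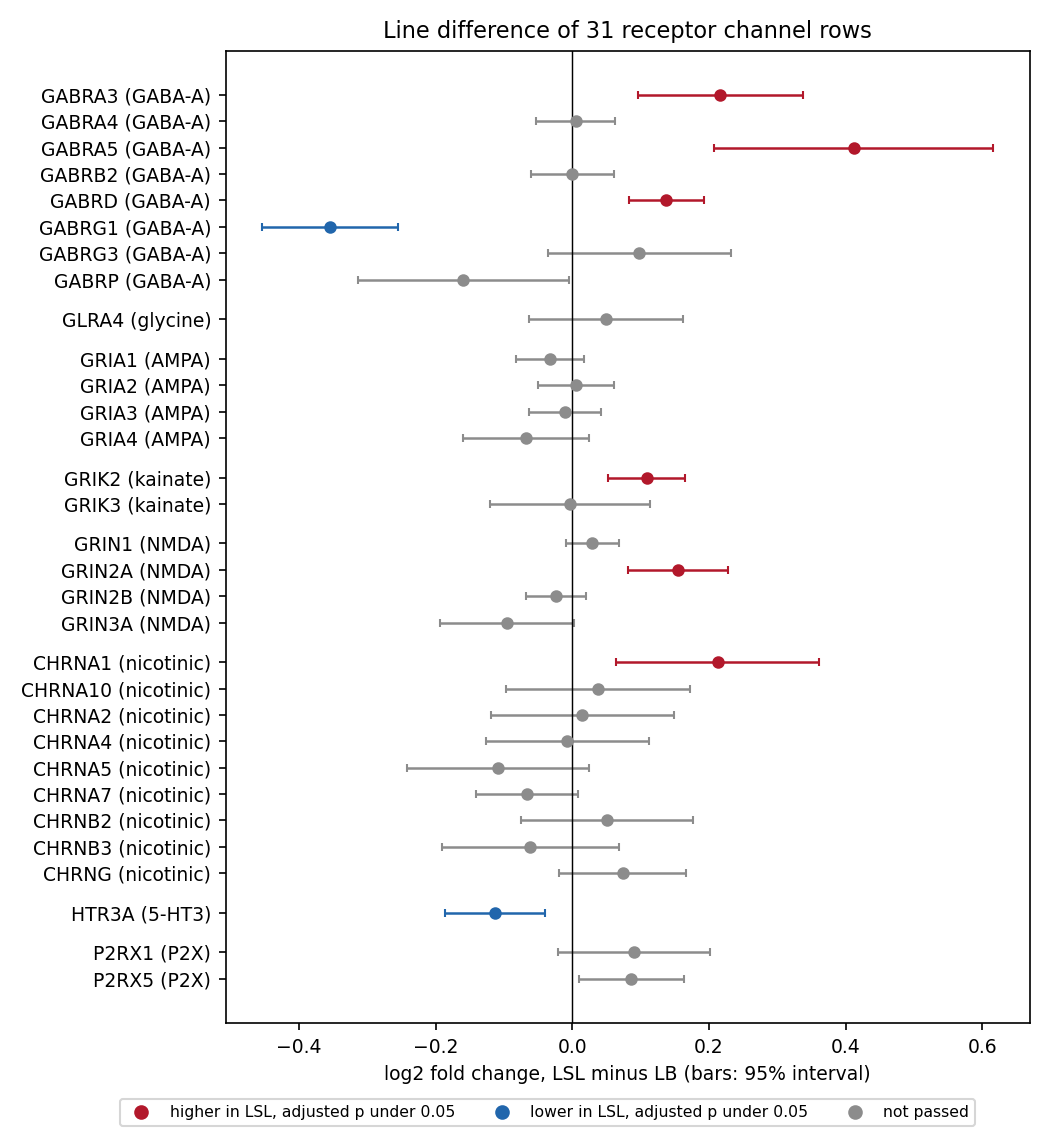
Log2 fold change of LSL minus LB hens (x axis) with its 95% interval for the 31 receptor channel rows tested, ordered by receptor family (y axis). GABRG1 lay farthest left at -0.35 and GABRA5 farthest right at 0.41, while the intervals of all 4 AMPA rows crossed 0.

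Of the 8 GABA-A rows tested, 3 were higher in LSL, 1 was lower and 4 did not pass. Of all rows tested 10.8% were higher and 11.9% lower in LSL. With so few rows in each, the receptor families were not compared with each other. GABRG1 encodes a gamma1 subunit, a variant of the gamma subunits that anchor GABA-A receptors at synapses and form part of the benzodiazepine site. Its values ran from 8.90 through a median of 9.22 to 9.56 in LSL hens, against 9.27, 9.64 and 10.1 in LB hens. All 30 LSL hens were below the LB median, 17 LSL hens were below the lowest LB hen, and 17 LB hens were above the highest LSL hen, so the lines overlapped only in the middle of the range. The line difference was -0.35 ± 0.05 (log2, SE, limma adjusted p = 1.0e-07), and it was -0.36 in the set of 42 arrays and -0.34 in the set of 18 arrays, with limma adjusted p = 0.047 in the set of 18. GABRG1 passed the threshold under all 13 alternative settings tried.

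GABRA5 encodes the alpha5 subunit, which in mammals is linked to slow, tonic inhibition outside synapses and to hippocampal learning. Its lowest, median and highest values were 8.60, 9.41 and 10.3 in LSL hens, against 7.98, 9.11 and 9.65 in LB hens. The lines overlapped widely, although 26 of 30 LSL hens were above the LB median and 9 LSL hens were above the highest LB hen. GABRA5 showed the largest rise of the 31 rows, 0.41 ± 0.10 (log2, SE, limma adjusted p = 0.0019). This was 0.34 in the set of 42 arrays (limma adjusted p = 0.036) and 0.55 in the set of 18, where it did not pass (limma adjusted p = 0.088).

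GABRA3 encodes the alpha3 subunit, known from mammals for its place in brainstem and cortical circuits and at monoaminergic neurons. It ran from 9.41 through 9.95 to 10.6 in LSL hens, against 9.31, 9.70 and 10.2 in LB hens. In this row 25 of 30 LSL hens were above the LB median, with overlap over most of the range. The difference was 0.22 ± 0.06 (log2, SE, limma adjusted p = 0.0059). It was 0.22 in the set of 42 and 0.14 in the set of 18 arrays (limma adjusted p = 0.42 in the set of 18). Both lines had higher GABRA3 values in the set of 18, with means of 10.1 in LSL and 10.0 in LB hens there, against means of 9.84 in LSL and 9.62 in LB hens in the set of 42.

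GABRD encodes the delta subunit, which replaces the gamma subunit in extrasynaptic receptors of high GABA affinity. Values ran from 10.3 through 10.6 to 10.8 in LSL hens, against 10.3, 10.5 and 10.6 in LB hens. No LB hen exceeded the LSL median, and 15 LSL hens were above the highest LB hen, whereas 1 LSL hen was below the lowest LB hen. The difference was small in size, 0.14 ± 0.03 (log2, SE), but it had the second smallest p of the receptor rows (limma adjusted p = 9.3e-05). Within the sets it was 0.16 (42 arrays) and 0.08 (18 arrays, limma adjusted p = 0.41).

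The 4 other GABA-A rows did not pass. GABRA4, an alpha subunit of striatal, thalamic and hippocampal receptors in mammals, averaged 11.1 in both lines with a difference of 0.00 and a 95% interval from -0.05 to 0.06. GABRB2 is a beta subunit, a class that most GABA-A receptors need for assembly. It averaged 11.0 in both lines, with an interval from -0.06 to 0.06. These intervals are narrower than the changes of GABRG1, GABRA5 and GABRA3. GABRP, the pi subunit, known mainly from reproductive tissue and other epithelia, differed by -0.16 ± 0.08, and GABRG3, another gamma subunit, by 0.10 ± 0.07 (log2, SE, limma adjusted p = 0.14 and 0.34).

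**Figure D2:**
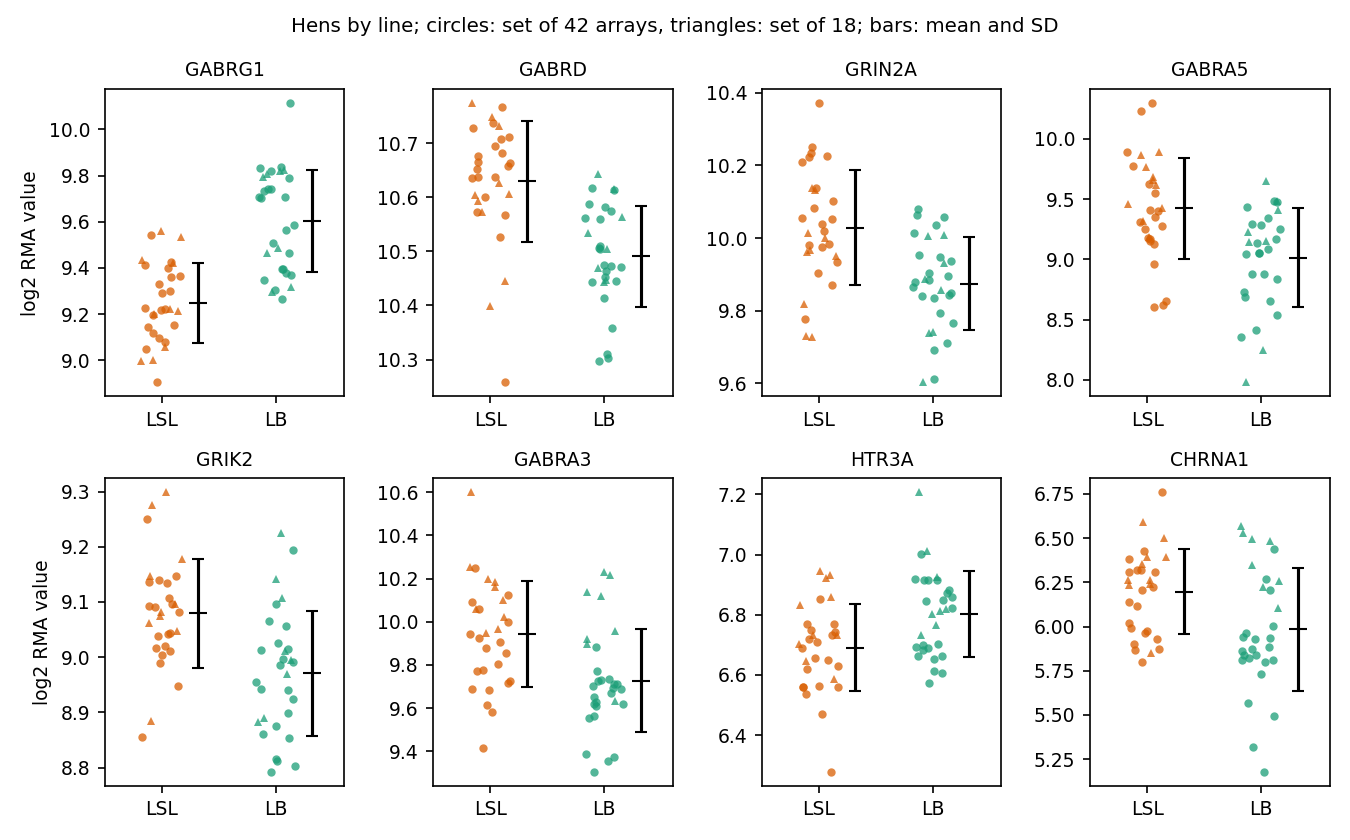
Log2 RMA value of each hen (y axis) in LSL and LB hens (x axis) for the 8 receptor channel rows past the threshold, with circles for the set of 42 arrays, triangles for the set of 18, and bars for the mean and SD of each line (n = 30). The lines separated most for GABRG1, where 17 LSL hens were below every LB hen, whereas the LB triangles of CHRNA1 lay among the higher LB values.

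GABA-A subunit genes lie in clusters in vertebrate genomes, and members next to each other on the GRCg7b assembly were compared. GABRG1 shares a cluster with GABRA2, which had no row, and GABRA4. The line difference of GABRG1 minus that of GABRA4 was -0.36 over all hens (two-sided permutation test, p = 1e-05, the smallest that 100000 resamples can give, and 3e-05 adjusted over 3 differences between rows), -0.37 in the set of 42 and -0.29 in the set of 18 (permutation p = 0.027, adjusted 0.066). GABRA5 and GABRG3 are direct neighbours, and the line difference of GABRA5 was larger than that of GABRG3 by 0.31 (permutation p = 0.0081, also after adjustment). Within the sets this gap was 0.22 (42 arrays, permutation p = 0.088) and 0.47 (18 arrays, permutation p = 0.044, adjusted 0.066), so it passed only over all hens. GABRG1 and GABRA5 were compared with their neighbours because they had passed, so these p-values are too small.

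Among the ionotropic glutamate receptors 2 of the 10 rows tested passed, beside 22.8% of all rows tested. They were 1 NMDA and 1 kainate subunit, both higher in LSL. GRIN2A encodes the NMDA subunit GluN2A, which gives faster channel closure than GluN2B and becomes more abundant as the mammalian forebrain matures. Its values ran from 9.73 through 10.0 to 10.4 in LSL hens, against 9.60, 9.88 and 10.1 in LB hens. The ranges overlapped, with 25 of 30 LSL hens above the LB median and 11 LSL hens above the highest LB hen. The difference was 0.15 ± 0.04 (log2, SE, limma adjusted p = 0.0012), and it was 0.19 in the set of 42 and 0.10 in the set of 18 arrays (limma adjusted p = 0.46 in the set of 18).

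GRIK2 encodes the kainate subunit GluK2, which acts at presynaptic and postsynaptic sites. It ran from 8.86 through 9.08 to 9.30 in LSL hens, against 8.79, 8.98 and 9.23 in LB hens. Again the lines overlapped widely, yet 27 of 30 LSL hens were above the LB median. The difference of 0.11 ± 0.03 (log2, SE, limma adjusted p = 0.0028) was the smallest of the 8 in size. Within the sets it was 0.11 (42 arrays) and 0.09 (18 arrays, limma adjusted p = 0.45).

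All 4 AMPA subunits, which carry fast excitatory transmission, stayed short of the threshold, with changes from -0.07 to 0.01 and adjusted p of 0.34 or higher in limma. GRIA3, named here for the brightness of its probes, ran from 10.4 through 10.8 to 10.9 in LSL hens, against 10.6, 10.8 and 11.0 in LB hens. Its difference was -0.01 with a 95% interval from -0.06 to 0.04. The obligatory NMDA subunit GRIN1 differed by 0.03 ± 0.02, with means of 11.6 in both lines and a 95% interval from -0.01 to 0.07. GRIN2B, the subunit of the slower NMDA receptors, differed by -0.02 ± 0.02 and GRIN3A, which lowers calcium flow through the receptor, by -0.09 ± 0.05, which did not pass (log2, SE). The kainate subunit GRIK3 had means of 7.65 in both lines, with a 95% interval of the difference from -0.12 to 0.11.

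The change of GRIN2A minus that of GRIN2B was 0.18 over all hens, 0.20 in the set of 42 and 0.16 in the set of 18. This pair was picked because GRIN2A had passed and GRIN2B had not, so the gap is a description and no test of it is given.

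Of the 9 nicotinic rows tested only CHRNA1 passed, beside 22.8% of all rows tested. CHRNA1 encodes the alpha subunit of the acetylcholine receptor at the neuromuscular junction and is not a usual subunit of brain receptors. Its values ran from 5.80 through 6.24 to 6.76 in LSL hens, against 5.18, 5.93 and 6.57 in LB hens, with 24 of 30 LSL hens above the LB median. The difference was 0.21 ± 0.08 (log2, SE, limma adjusted p = 0.033). It was 0.30 in the set of 42 arrays (limma adjusted p = 0.0039) but -0.07 in the set of 18 (limma adjusted p = 0.72). In the set of 18 LSL hens averaged 6.31 and LB hens 6.38, while in the set of 42 LSL hens averaged 6.14 and LB hens 5.84, so that the sign of the line difference turned between the sets; the change between the sets was not tested. Of 7 skeletal muscle markers listed only MYOG had a row above the limit, with a difference of 0.08 (limma adjusted p = 0.20), and ACTA1, CKM, MYH1, MYLPF and TNNT3 had no row, so the part of muscle tissue was not tested.

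The 8 other nicotinic rows ranged in change from -0.11 (CHRNA5) to 0.07 (CHRNG), with the lowest adjusted p at 0.22 (CHRNA7). CHRNA4 and CHRNB2 form the most common high-affinity nicotinic receptor of the brain. CHRNA4 averaged 8.20 in LSL and 8.21 in LB hens (difference -0.01, 95% interval from -0.13 to 0.11), and CHRNB2 averaged 8.00 in LSL and 7.95 in LB hens (difference 0.05, interval from -0.07 to 0.18). The CHRNB2 row summarised a single probe set, against 4 to 22 in the other member rows. CHRNA7, which builds the fast calcium-permeable homomeric receptor, differed by -0.07 ± 0.04, and CHRNA5, an accessory subunit, by -0.11 ± 0.07 (log2, SE, limma adjusted p = 0.22 and 0.27).

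HTR3A, the subunit without which no 5-HT3 receptor forms, was the second row that was lower in LSL. It ran from 6.28 through 6.71 to 6.95 in LSL hens, against 6.57, 6.82 and 7.21 in LB hens. The lines overlapped over most of the range, with 24 of 30 LSL hens below the LB median and 7 below the lowest LB hen. The difference was -0.11 ± 0.04 (log2, SE, limma adjusted p = 0.020). It was -0.13 in the set of 42 and -0.10 in the set of 18 arrays (limma adjusted p = 0.46 in the set of 18). With paired hen numbers alone as a random block the call was lost for HTR3A (limma adjusted p = 0.075) and for CHRNA1 (limma adjusted p = 0.089). With the array sets in that model too, HTR3A and CHRNA1 passed (limma adjusted p = 0.010 and 0.038). The other rows past the threshold kept their call with the pairs alone as a block. There the limma adjusted p was 7.8e-06 for GABRG1, 0.0015 for GABRD and 0.0093 for GRIN2A. For GABRA5, GRIK2 and GABRA3 it was 0.016, 0.017 and 0.023.

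Neither P2X row passed, and neither did the glycine row. P2RX5 averaged 8.71 ± 0.14 in LSL and 8.62 ± 0.16 in LB hens (SD, n = 30 each), a difference of 0.09 ± 0.04 (log2, SE, limma adjusted p = 0.11). With the array sets as a block it was 0.10 and passed (limma adjusted p = 0.017), so that 9 of 31 rows passed (29.0%), beside 29.1% of all rows in the same fit. As the sets came from the residuals of the same rows, these p-values may be too small. P2RX1, the platelet and smooth muscle P2X subunit, differed by 0.09 ± 0.06 and GLRA4, a glycine receptor alpha subunit, by 0.05 ± 0.06 (log2, SE, limma adjusted p = 0.27 and 0.61).

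The next comparison asked whether compartments of 54 and of 36 hens differed. In limma 0 of the 31 receptor rows and 0 of all 16317 rows passed an adjusted p of 0.05, and the unpaired test of the methods gave 0 as well. At an unadjusted p of 0.05, 2 of the 31 receptor rows were called, against 5.44% of all rows. They were CHRNB3, an accessory subunit of nicotinic receptors on dopamine neurons and in the visual system, and the kainate subunit GRIK3, with changes of -0.19 ± 0.06 and -0.13 ± 0.06 (log2, 54 minus 36, SE, limma adjusted p = 0.87 for each). CHRNB3 averaged 5.99 ± 0.33 in LSL hens of 54 (SD, n = 14) and 6.19 ± 0.23 in LSL hens of 36 (SD, n = 16), and 6.08 ± 0.25 in LB hens of 54 (SD, n = 16) and 6.26 ± 0.15 in LB hens of 36 (SD, n = 14). The difference was smaller than the SD of either group size in LSL hens, and lay between the SDs of the group sizes in LB hens. GRIK3 averaged 7.53 in LSL hens of 54 and 7.75 in LSL hens of 36, and 7.63 in LB hens of 54 and 7.68 in LB hens of 36. GRIA4 followed with a change of 0.08 ± 0.05 (log2, SE, limma adjusted p = 0.88).

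The difference between the lines was also compared across group sizes. In the interaction term of limma none of the 31 receptor rows was called by adjusted p, and none at an unadjusted p of 0.05, against 4.92% of all 16317 rows. With the array sets as a block, CHRNA10 and GABRP were called at an unadjusted p of 0.05, which is 6.45% of the 31 rows, against 7.48% of all rows, and none by adjusted p. GABRG1 was lower in LSL by 0.32 among hens of 54 and by 0.39 among hens of 36, and GABRA5 was higher by 0.43 among hens of 54 and by 0.39 among hens of 36. For GABRD the difference was 0.15 in groups of 54 and 0.13 in groups of 36. GABRA5 did not pass in groups of 36 alone (limma adjusted p = 0.105). In groups of 54 alone GABRA3, GRIN2A and GRIK2 did not pass (limma adjusted p = 0.25, 0.092 and 0.27). CHRNA1 and HTR3A passed in neither group size alone. The largest interaction terms were -0.29 ± 0.16 for GABRP and 0.27 ± 0.13 for CHRNA10, a nicotinic subunit known from hair cells (log2, SE; limma p = 0.064 and 0.052, adjusted p of 1.00 each). GRIK3 had the next smallest p, with a term of -0.17 ± 0.11 (log2, SE, limma p = 0.15). GABRP differed by -0.31 in hens of 54 (limma adjusted p = 0.022) and by -0.01 in hens of 36, while the interaction itself did not pass.

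**Figure D3:**
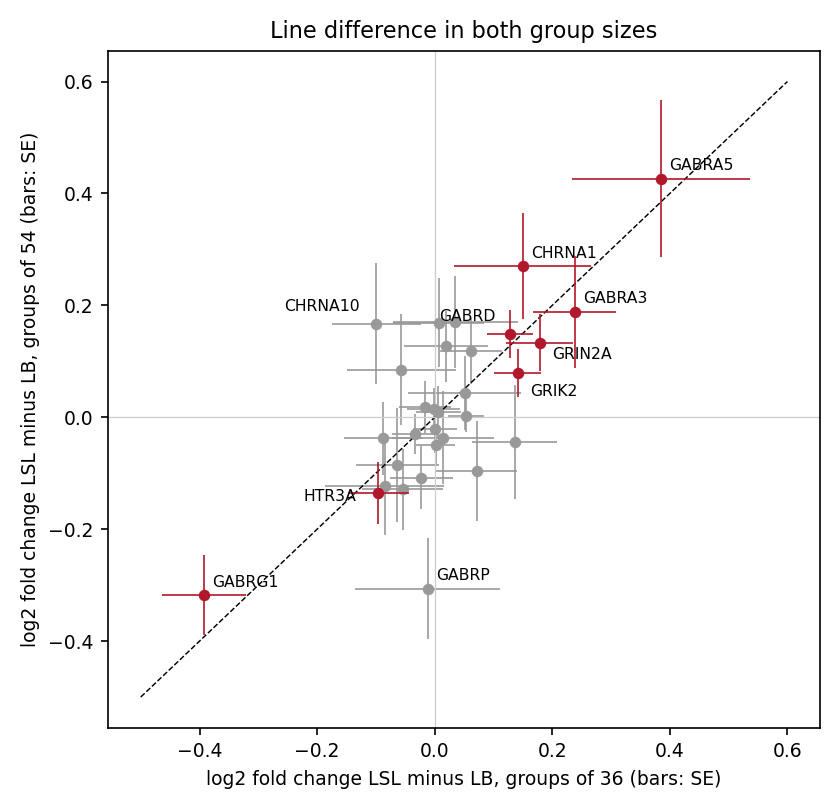
Log2 fold change of LSL minus LB hens in groups of 54 (y axis) against that in groups of 36 (x axis) for the 31 receptor channel rows, with SE bars; red points passed over all 60 hens, and the dashed line marks equal differences. GABRA5 (0.43 and 0.39) and GABRG1 (-0.32 and -0.39) lay at opposite ends close to the line, whereas GABRP (-0.31 and -0.01) lay off it.

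The rows also differed in how much hens of the same line varied. The SD within lines was 0.07 for GRIN1, 0.08 for GRIN2B, 0.09 for GRIA1 and 0.10 for GRIA3, each below the 10th percentile of all rows tested, whose median was 0.18. GABRD (0.10) and GRIA2, GRIK2 and GABRA4 (0.11 each) were below that percentile too. Other AMPA and NMDA rows were above it, with SDs of 0.14 for GRIN2A, 0.18 for GRIA4 and 0.19 for GRIN3A. At the other end GABRA5 had an SD of 0.41, above 95.3% of all rows tested, and GABRP had an SD of 0.31 and CHRNA1 of 0.30. GABRA5 thus combined the largest rise in LSL with the widest spread, and its SD was 0.42 in LSL and 0.41 in LB hens.

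To see which subunits varied together from hen to hen, each row was taken around the mean of its line within an array set, and all 465 pairs of the 31 rows were correlated. In the set of 42 hens, 36 pairs passed an adjusted p of 0.05 (permutation of hens within lines, Benjamini-Hochberg over 465 pairs), 24 positive and 12 negative, and 25 of them passed by Pearson's r and by Spearman's rho. The median r over all pairs was 0.01. In the separate set of 18 hens 30 of the 36 pairs had the same sign and 3 passed as well. With the 21 means of hen pairs in place of single hens 9 of the 36 passed, 4 of them by r and by rho. The p-values of single pairs given below permute single hens and may be too small. Rows on 1 array share its RNA sample and normalisation, and the part of either was not tested. Pairs of other rows were not correlated, so whether 36 of 465 is more than usual on these arrays was not tested.

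GABRA5 was in 2 of the 3 pairs that passed in both sets. Hens with high GABRA5 had low values of the AMPA subunit GRIA4, with r = -0.76 and rho = -0.74 in the set of 42 (permutation p = 1e-05 each, the smallest possible, adjusted p = 0.00042 for r and 0.00093 for rho). In the set of 18 the same pair had r = -0.74 and rho = -0.80 (permutation p = 0.00018 and 0.00019, adjusted p = 0.021 for r). Without the 2 hens farthest from the median in GABRA5, r was -0.70 in the set of 42 and -0.62 in the set of 18, so the relation did not rest on those hens.

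The kainate subunit GRIK3 went the other way, rising and falling with GABRA5 and GABRA3. For GABRA5 and GRIK3, r was 0.75 and rho 0.74 in the set of 42 (permutation p = 1e-05 each, adjusted p = 0.00042 for r) and r was 0.74 and rho 0.78 in the set of 18 (permutation p = 0.0011 and 0.00038, adjusted p = 0.053 for r, so it did not pass there). For GABRA3 and GRIK3, r was 0.64 and rho 0.58 in the set of 42 (permutation p = 1e-05 and 0.00011, adjusted p = 0.00042 for r), and r was 0.81 and rho 0.76 in the set of 18 (permutation p = 8e-05 and 0.00097, adjusted p = 0.019 for r). GABRA5 and GRIN2A were the third pair to pass in both sets, with r = 0.54 and rho = 0.51 in the set of 42 (permutation p = 0.00043 and 0.00093, adjusted p = 0.0091 for r) and r = 0.71 and rho = 0.79 in the set of 18 (permutation p = 0.00047 and 6e-05, adjusted p = 0.044 for r). Leaving out the 2 hens farthest from the median of the first gene gave r of 0.74 and 0.55 for GABRA5 and GRIK3, 0.55 and 0.69 for GABRA3 and GRIK3, and 0.42 and 0.70 for GABRA5 and GRIN2A, in the sets of 42 and 18 hens in that order.

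Further pairs passed in the set of 42 among AMPA and NMDA subunits and between these and GABRA4. There GRIA4 and GRIN2B had r = 0.68, GABRA4 and GRIA4 r = 0.69, GABRA4 and GRIN2B r = 0.68, GRIA2 and GRIA4 r = 0.65, and GRIN1 and GRIN2B r = 0.64 (permutation p of 1e-05 or 2e-05 and adjusted p up to 0.00077 over these). These relations were weaker in the set of 18, where r was 0.26, 0.49, 0.06, 0.29 and 0.01, and none of the 5 passed. CHRNB2 and GRIN1, at r = 0.73 in the set of 42, had r = 0.13 in the set of 18. CHRNA2, a nicotinic subunit of restricted distribution in the mammalian brain, and P2RX1 had r = 0.68 and rho = 0.72 in the set of 42 (permutation p = 1e-05 each, adjusted p = 0.00042 for r), and r = 0.67 and rho = 0.61 in the set of 18 (permutation p = 0.0034 and 0.0093, adjusted p = 0.099 for r).

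**Figure D4:**
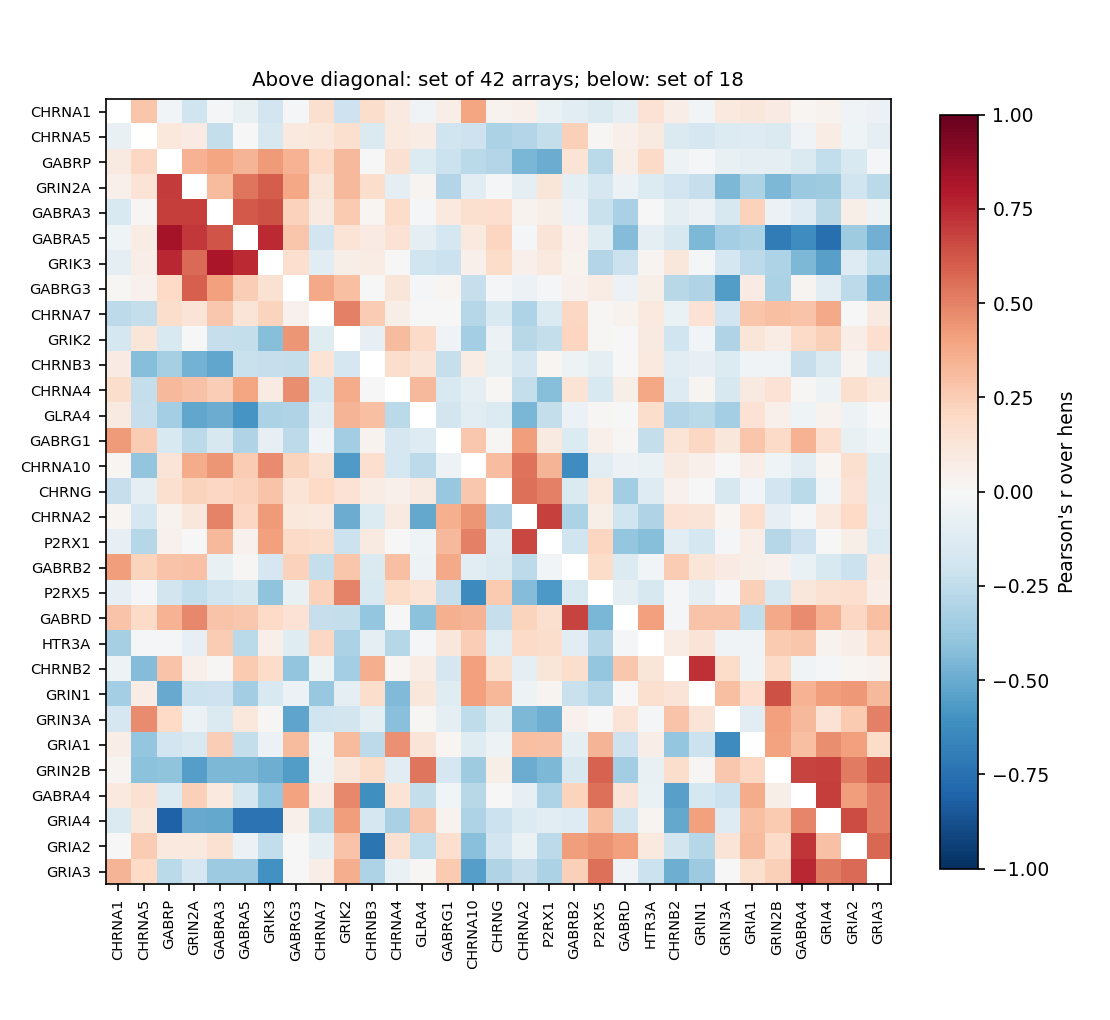
Pearson's r over hens between the 31 receptor channel rows, each taken around its line mean, in the set of 42 arrays (above the diagonal) and the set of 18 arrays (below it), from blue (-1) through white (0) to red (1); rows and columns are ordered by clustering of the set of 42. A block of GRIN2A, GABRA3, GABRA5 and GRIK3 was red on both sides of the diagonal, and the column of GRIA4 was blue against GABRA5 and GRIK3 on both sides.

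**Figure D5:**
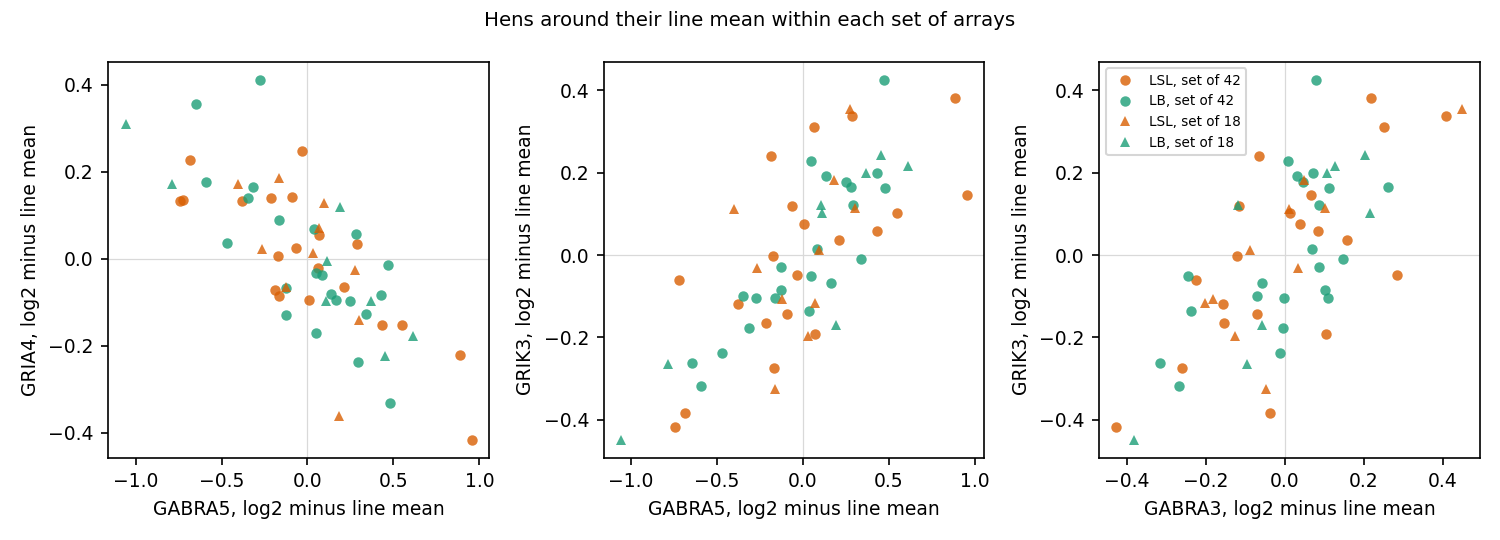
Values of each hen around its line mean within its array set (both axes, log2) for GRIA4 against GABRA5, GRIK3 against GABRA5 and GRIK3 against GABRA3; orange for LSL, green for LB, circles for the set of 42 and triangles for the set of 18. The slope ran down in the first panel (r = -0.76 and -0.74 in the sets of 42 and 18) and up in the others (r = 0.75 and 0.74, and 0.64 and 0.81), with hens of both lines along its length.

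Cell type markers moved with some of these rows. Of the 3 GABAergic neuron markers with a row, SLC32A1, the vesicular GABA transporter, and GAD2, a GABA-synthesising enzyme, were lower in LSL by 0.23 and 0.18 (log2, limma adjusted p = 0.0011 and 0.039), and DLX5 did not pass. Only 1 of these 3 rows passed once hen pairs were blocked. The summed level of the 3 rows ran from 10.6 to 11.0 in LSL hens, against 10.7 to 11.2 in LB hens (log2). Of the 5 striatal markers with a row, ADORA2A, DRD1 and PENK were higher in LSL by 0.20, 0.16 and 0.35 (limma adjusted p = 0.0060, 0.021 and 0.039), with a summed level from 10.5 to 11.2 in LSL hens, against 10.4 to 10.9 in LB hens. With hen pairs as a block 1 of the 5 striatal rows passed, and the call of MBP was lost. None of the 4 glutamatergic, 2 astrocyte, 4 microglial, 3 vascular or 2 choroid plexus marker rows passed. Of all rows tested 22.8% passed, and 17.0% with hen pairs as a block. The marker lists are too short for their shares to be told apart from these. The neuronal marker MAP2 was 0.14 and the myelin gene MBP 0.10 higher in LSL, while 4 of the 5 neuronal rows did not pass, and CBLN1, a cerebellar marker, was 0.16 lower. GAD1, DLX1, SLC17A7, DRD2, PPP1R1B, FOXP2 and RGS9 had no row.

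Hen by hen, 96 relations between 8 receptor rows, chosen after their values had been seen, and 12 marker lists were computed in each array set. After adjustment 16 passed in the set of 42 and 8 in the set of 18. Other rows were not set against the lists, so whether these counts are more than usual on these arrays was not tested. GABRA5 was itself correlated with GRIK3 and GRIA4, so relations of these rows to the same list are not independent of each other. Single hens were permuted and means of hen pairs were not tried here, so the p-values of these relations may be too small. The list named glutamatergic had 4 rows (SLC17A6, TBR1, NEUROD6 and BCL11B). Whether these rows, BCL11B among them, mark only glutamatergic neurons in such tissue pieces was not tested. The mean of the 4 rows followed GRIK3 with r = 0.53 and rho = 0.50 in the set of 42 (permutation p = 0.00029 and 0.0011, adjusted p = 0.0096 for r). In the set of 18 it had r = 0.80 and rho = 0.82 with GRIK3 (permutation p = 0.00024 and 8e-05, adjusted p = 0.0090 for r). It followed GABRA5 with r = 0.41 and rho = 0.45 in the set of 42 (permutation p = 0.0048 and 0.0032, adjusted p = 0.033 for r) and r = 0.77 and rho = 0.74 in the set of 18 (permutation p = 0.0011 and 0.0012, adjusted p = 0.017 for r). GRIA4 opposed it with r = -0.45 and rho = -0.46 in the set of 42 (permutation p = 0.0035 and 0.0030, adjusted p = 0.026 for r) and r = -0.83 in the set of 18 by either measure (permutation p = 0.00011 and 0.00014, adjusted p = 0.0090 for r). Without the 2 hens farthest from the median of the list, r in the sets of 42 and 18 was 0.50 and 0.74 for GRIK3, 0.35 and 0.68 for GABRA5, and -0.30 and -0.70 for GRIA4. GRIN2A did not pass with this list (r = 0.31 and 0.51, adjusted p = 0.19 and 0.22 in the sets of 42 and 18), and neither did GABRA3 (r = 0.24 and 0.58, adjusted p = 0.29 and 0.14). The part of cell composition in the pairs was not tested.

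The 2 oligodendrocyte rows opposed GRIK3, GABRA3 and GABRA5 in the set of 18. Their mean had r = -0.80 and rho = -0.70 with GRIK3 (permutation p = 0.00028 and 0.0028, adjusted p = 0.0090 for r), r = -0.79 and rho = -0.81 with GABRA3 (permutation p = 0.00045 and 0.00024, adjusted p = 0.011 for r), and r = -0.72 and rho = -0.63 with GABRA5 (permutation p = 0.0027 and 0.0075, adjusted p = 0.032 for r and 0.081 for rho). Without the 2 hens farthest from the median of the list, r was -0.72 for GRIK3, -0.77 for GABRA3 and -0.58 for GABRA5. None of these passed in the set of 42, with r of -0.06 for GRIK3, -0.08 for GABRA3 and 0.00 for GABRA5. The 4 microglial rows passed in the set of 18 with GRIN2A (r = -0.74, adjusted permutation p = 0.016) and GRIN2B (r = 0.70, adjusted permutation p = 0.029), but not in the set of 42 (r = -0.11 and 0.32).

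In the set of 42 GABRA5 also followed the GABAergic rows (r = 0.47, rho = 0.48) and the striatal rows (r = 0.45, rho = 0.38) and opposed the microglial rows (r = -0.52, rho = -0.52) and the choroid plexus rows (r = -0.44, rho = -0.42), with permutation p from 0.00053 to 0.0032 and adjusted p from 0.010 to 0.026 for r. In the set of 18 its r with these lists was 0.09, 0.02, -0.43 and -0.20 in that order, and none passed. By rho the relation of GABRA5 to the striatal rows did not pass in the set of 42 (adjusted permutation p = 0.07). Further relations that passed in the set of 42 and not in the set of 18 were those of the choroid plexus rows with GRIK3 (r = -0.52), GRIN2A (r = -0.41) and GRIA4 (r = 0.53), of the microglial rows with GRIK3 (r = -0.48) and GRIA4 (r = 0.45), of the cerebellar rows with GRIA4 (r = 0.49) and of the striatal rows with GABRA3 (r = 0.42), with adjusted permutation p from 0.0096 to 0.041. Of these, the microglial rows with GRIA4 did not pass by rho in the set of 42 (adjusted permutation p = 0.058). GABRD opposed the striatal and the GABAergic rows in the set of 42. With the 5 striatal rows r was -0.56 and rho -0.55 (permutation p = 0.00012 and 0.00032, adjusted p = 0.0096 for r, r = -0.51 without the 2 farthest hens), and with the 3 GABAergic rows r was -0.45 and rho -0.52 (permutation p = 0.0031 and 0.00063, adjusted p = 0.026 for r, r = -0.49 without the 2 farthest hens). In the set of 18 these were r = 0.07 and r = -0.35 and did not pass (permutation p = 0.79 and 0.19). For GABRG1 no marker list passed in either set.

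The proteins that hold these receptors in place showed a mixed picture. Of 31 rows of 30 genes for receptor clustering, scaffolds and auxiliary subunits, 5 were higher and 2 lower in LSL, together 22.6%, beside 22.8% of all rows. The counts were the same with hen pairs as a block, where 17.0% of all rows passed. With the array sets as a block 5 were higher and 7 lower, where 29.1% of all rows passed. RIC3, a chaperone for the assembly of nicotinic and 5-HT3 receptors, averaged 9.34 ± 0.19 in LSL and 9.06 ± 0.10 in LB hens (SD, n = 30 each), a difference of 0.28 (limma adjusted p = 6.3e-08). DOK7, which with MUSK organises the neuromuscular synapse, was higher by 0.17, TRAK2, a trafficking adaptor that binds GABA-A receptors, by 0.11, and ZDHHC3, which palmitoylates the gamma2 subunit, by 0.09. GRIP1, the AMPA receptor scaffold, averaged 8.60 ± 0.13 in LSL and 8.79 ± 0.12 in LB hens (SD, n = 30 each) and was lower by 0.19 (limma adjusted p = 5.9e-06). CBLN1, which bridges presynaptic neurexin and delta receptors, was lower by 0.16. Gephyrin (GPHN), which anchors GABA-A and glycine receptors, did not pass, with a difference of -0.06 (limma adjusted p = 0.097).

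Genes that make, pack, take up or break down the transmitters were lower in LSL in 6 of 20 rows and higher in 2, together 40.0%, beside 22.8% of all rows. With hen pairs as a block 5 were lower and 1 was higher, where 17.0% of all rows passed. NT5E, which makes adenosine from AMP, averaged 5.82 ± 0.24 in LSL and 6.38 ± 0.28 in LB hens (SD, n = 30 each) and was lower by 0.55 (limma adjusted p = 9.8e-10). BCHE, which splits acetylcholine and other choline esters, averaged 8.10 ± 0.16 in LSL and 8.43 ± 0.16 in LB hens (SD, n = 30 each) and was lower by 0.33 (limma adjusted p = 1.5e-09). PANX1, an ATP release channel, was lower by 0.21, as were SLC1A6, a glutamate transporter, by 0.23, and SLC32A1 and GAD2, given above. SHMT1, which interconverts serine and glycine, was higher by 0.34 and TPH1, a tryptophan hydroxylase, by 0.15.

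Of 26 rows of metabotropic receptors for the same transmitters, 3 were higher and 2 lower in LSL, together 19.2%, beside 22.8% of all rows. With hen pairs as a block 1 was higher and 1 lower, where 17.0% of all rows passed. The purinergic receptor P2RY14 was higher by 0.39, the serotonin receptor HTR7 by 0.14 and the glutamate receptor GRM7 by 0.06. P2RY2 was lower by 0.29 and the serotonin receptor HTR1F by 0.19. The GABA-B subunit GABBR2 differed by -0.01 (limma adjusted p = 0.87).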

How the data were processed

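Cerebral RNA of 60 hens was hybridised to an Affymetrix chicken gene array. The deposited values are log2 intensities that the authors normalised with RMA in GeneSpring GX 11; the genome build is not given in the sources used here, and a second deposited table held the same values (largest difference 0). Each row combined 1 or more probe sets, named from the platform annotation: 8390 rows had 1 symbol, 86 several and 11922 none. One empty row and 2 named control rows were left out, as were rows below the 20th percentile of row means (5.08), leaving 16317. Layer line, group size and their interaction were tested with limma 3.58.1 in R 4.3.3, each on all rows with Benjamini-Hochberg adjustment, and the scripts were tested on simulated data. The main models held layer line alone or group size alone, as in the study's unpaired test. Alternatives were group size as covariate, array sets as a block or separately, a random block for hens with consecutive numbers, each odd one joined to the even one after it, other filters, the study's unpaired test, and 1 group size at a time. Correlations and differences between members used permutation tests with 100000 resamples of hens within lines or between lines (scipy 1.17.1, numpy 2.4.6). Depth does not apply to arrays, where the numbers of arrays and of compartments limit precision. The p-values of the main models measure the spread between hens taken as independent, and compartments are not in the labels.

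Named were all members past the threshold, the 3 with the largest change among those that did not pass, the member with the brightest probes of each family (a way to pick, not a ranking of genes), the 3 smallest p for group size and for the interaction, and genomic neighbours of passing members. Other members were named as well, to describe the families or the correlated pairs. The members and gene lists were chosen with earlier results of these data known. Each member symbol had 1 row. Sequences were not used here.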

Additional observations from a re-analysis of the deposited data

How the results depend on the processing

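Of the 8 receptor rows past the threshold between the lines, GABRG1 passed under all 13 alternatives and GABRD under 12. GABRA5, GABRA3, GRIN2A and GRIK2 passed under 11 each, and HTR3A and CHRNA1 under 9 each. The second deposited table and the other filters left the log2 change of each row as it was, so passing there adds little. HTR3A and CHRNA1 were lost with hen pairs alone as a block, in each group size alone and within the set of 18 arrays. Both passed with hen pairs as a block and the array sets in the model. In all 30 hen pairs both hens lay in 1 array set. The count of rows higher in LSL, 6 over all hens, was 2 in hens from groups of 54 only and 0 within the set of 18 arrays. The count of rows lower in LSL, 2 over all hens, was 1 with a random block for hen pairs, 1 in hens from groups of 36 only and 1 within the set of 18 arrays. These subsets hold fewer hens, and the cause of each loss was not tested. Of the 8, CHRNA1 alone changed sign under any of these alternatives, at -0.069 within the set of 18 arrays. Of the 23 rows that did not pass, 11 changed sign under at least 1 alternative, and 6 (CHRNA2, CHRNA4, CHRNA10, GABRA4, GRIK3 and GRIN3A) had opposite signs in the sets of 42 and 18. GABRP passed in hens from groups of 54 alone (-0.31). Without a filter on low values CHRNA3 differed by 0.19 (limma adjusted p = 0.042), although all its values lay below the limit. The 36 correlated pairs of the set of 42 arrays became 5 in the set of 18 and 9 with the means of hen pairs; both of these alternatives were chosen after the data had been seen. With the array sets as a block 9 receptor rows passed in place of 8. The hen pairs had a correlation of 0.31, and of 0.14 with the array sets in the model. Taking the row with the highest values of each gene could change nothing, as each member symbol had 1 row. No paired analysis was possible because a hen number belongs to 1 hen and is not shared between the lines.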
